A study of Mus musculus with 9 samples.

Results

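The 10 genes described here are commonly used to characterise tumour-associated macrophages, and they were followed in the blood and tumours of 3 mice: Gpnmb, Spp1, Arg1, Mrc1, Cd36, Chil3 (Chi3l3 in older annotations), Trem2, Msr1, Cd68 and Fn1. They were chosen by name. All 10 were on the array, with 17 probes, among 14246 genes kept after a filter on dim probes and 27464 named genes in all. The mice, numbered 832, 833 and 834, were female BALB/c athymic animals whose ages are not given in the sources used here, and each gave 3 samples. The TIC fraction was an enriched preparation of tumour-infiltrating inflammatory cells from ground tumours, 10 days after Hepa1-6 cells were inoculated under the skin. Day 10 blood was taken at that time, and day 0 blood before inoculation (n = 3 arrays in each group). Hepa1-6 is a mouse hepatoma cell line. Athymic mice lack a thymus and so make few T cells, while their monocytes, neutrophils and B cells are retained, and the controls shared this trait. No sort or gate is described for the TIC fraction, and its RNA was isolated with another kit than the blood RNA, so tissue and RNA kit cannot be told apart. One label field gives blood as the source of the TIC samples too, while the tissue label names infiltrating cells.

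Macrophages in tumours derive largely from blood monocytes, which change their gene expression once they have left the circulation. The genes studied here cover several sides of that state: surface receptors for sugars, lipids and damaged proteins, a lysosomal protein, enzymes and secreted proteins that act on the matrix. Several of them are also made by other cells, such as Fn1 by fibroblasts and hepatocytes, Arg1 by hepatocytes, Cd36 by platelets and Chil3 by mouse neutrophils. All samples were bulk RNA, so that fewer cells of a type and less RNA per cell cannot be told apart.

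On each array the sample was labelled with Cy5 and compared with one reference RNA in Cy3, which came from the blood of a female C57Bl/6 mouse without treatment. The dyes were not swapped. Values are given as the log2 ratio of sample over reference, as the Cy5 signal alone (log2 after quantile normalization), and as plain Cy5 intensity above local background. In Cy5, 48.2% to 55.1% of spots exceeded background clearly on the TIC arrays, compared with 14.2% to 21.0% for day 10 blood and 24.3% to 36.9% for day 0 blood, and in Cy3 40.2% to 50.4% did on the 9 arrays. The TIC array of mouse 833 stood apart from the other two, with correlations across genes of 0.88 and 0.90, where mice 832 and 834 correlated at 0.99. TIC and day 10 blood arrays shared no slide. Slide 2 held 2 TIC and 2 day 0 arrays, and slide 3 held the 3 day 10 arrays and 1 day 0 array.

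Against day 10 blood, limma called 8 of the 10 genes in log ratio (Benjamini-Hochberg adjusted p under 0.05 over all genes). Gpnmb, Fn1, Mrc1, Trem2 and Msr1 were higher in the TIC fraction, and Arg1, Cd36 and Chil3 were lower. Spp1 and Cd68 were not called. Over all genes kept, 67.6% were called, 34.4% higher and 33.2% lower, so a count of 8 is near the background. In Cy5 alone all 10 were called, 8 higher and 2 lower (Cd36 and Chil3), against 57.9% of all genes, 34.7% higher and 23.2% lower. Arg1 was therefore lower by ratio and higher by Cy5. With median centring of the ratios in place of loess, 9 were called, all higher, beside 75.3% of all genes, 72.1% higher and 3.25% lower. Against day 0 blood the ratio called 9 genes, 6 higher, now with Spp1, and the same 3 lower, with 65.4% of all genes called, 31.7% higher and 33.7% lower. Cd68 alone missed the threshold there. In Cy5 alone 9 were called against day 0 blood, 7 higher and 2 lower, beside 49.8% of all genes, 27.2% higher and 22.7% lower. Between day 10 and day 0 blood, none of the 10 genes and 0% of all genes were called by limma in log ratio, with 2103 genes at an unadjusted p under 0.05 (19 genes called, none of the 10, with the mouse as a block). In Cy5 alone 1 of the 10, Cd36, was called higher at day 10, beside 3.85% of all genes, 1.64% higher and 2.21% lower. By ratio, all TIC arrays lay above all day 10 blood arrays for 5 of the 10 genes and below them for 3, beside 36.8% and 35% of all genes. Against day 0 blood the counts were also 5 and 3, beside 32.7% and 34.9%. In Cy5 alone 7 genes lay above day 0 blood and 2 below, beside 36.3% and 28%, and between the bloods 1 gene had day 10 arrays all above and 1 all below, beside 11.6% and 21%. Gpnmb, Spp1, Mrc1 and Msr1 were well above background on no blood array and passed the filter through the TIC arrays alone. Arg1 and Fn1, with 2 blood arrays above background each, also reached the minimum of 3 arrays only with the TIC arrays, as did 6076 of the 14246 genes kept, so the counts above lean to genes that are high in the TIC fraction. Without the filter 8 of the 10 were called against day 10 blood, 5 higher and 3 lower, beside 39% of all genes, 18.1% higher and 20.9% lower.

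**Figure D1:**
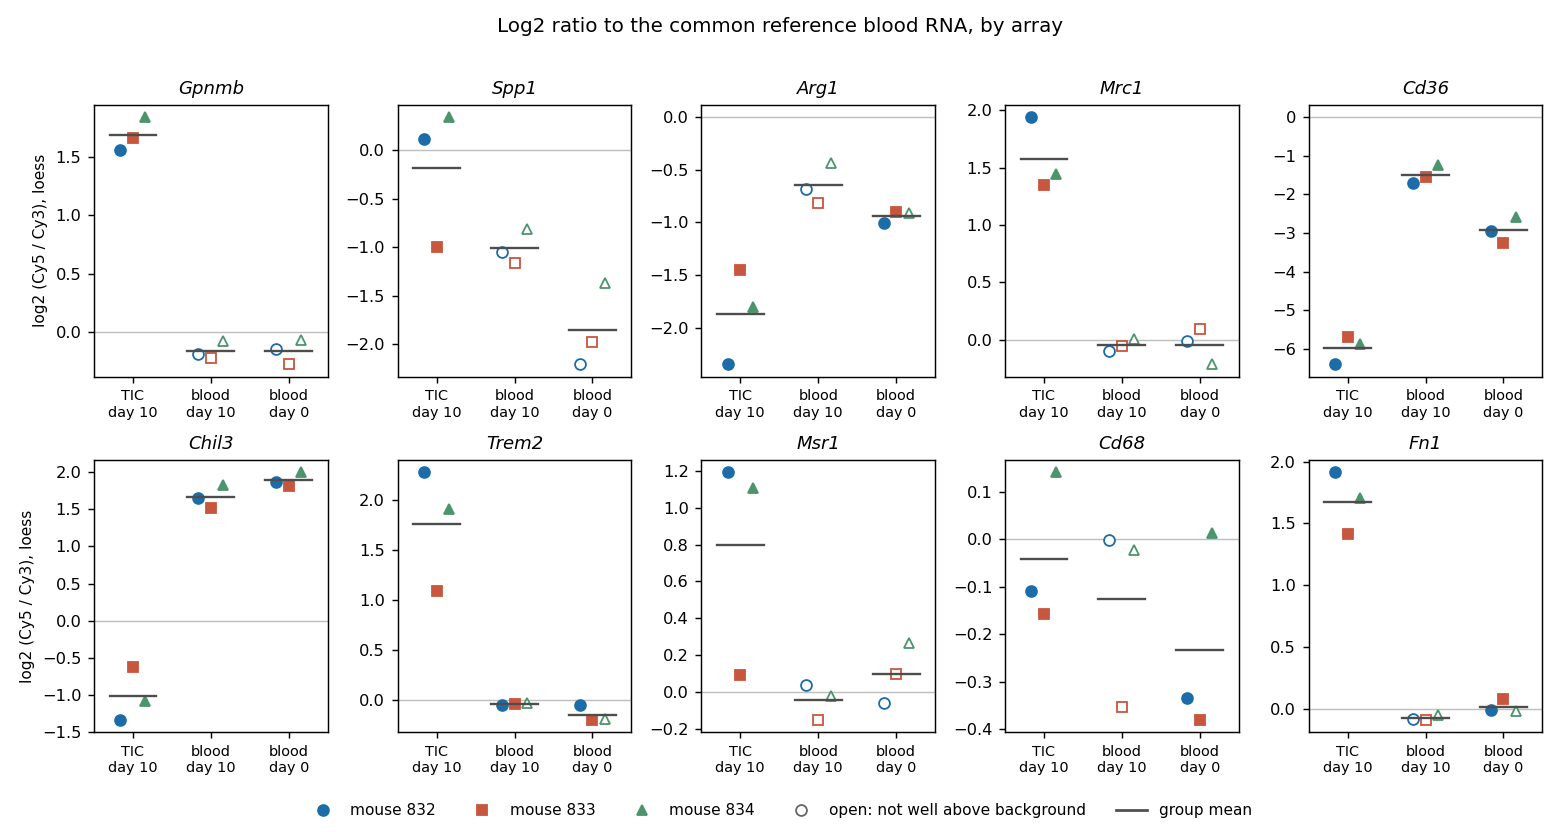
Log2 ratio of Cy5 over Cy3 (vertical axis) for the 10 genes on each array, in the TIC fraction, day 10 blood and day 0 blood, with 1 symbol per mouse, a bar at the group mean and open symbols where the probe was not well above background in Cy5. Gpnmb, Mrc1, Trem2 and Fn1 lie near 0 in both bloods and above 1 on all 3 TIC arrays, while Cd36 and Chil3 lie lowest on the TIC arrays and Arg1, lower in this ratio, is higher than day 10 blood in Cy5 alone.

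**Figure D2:**
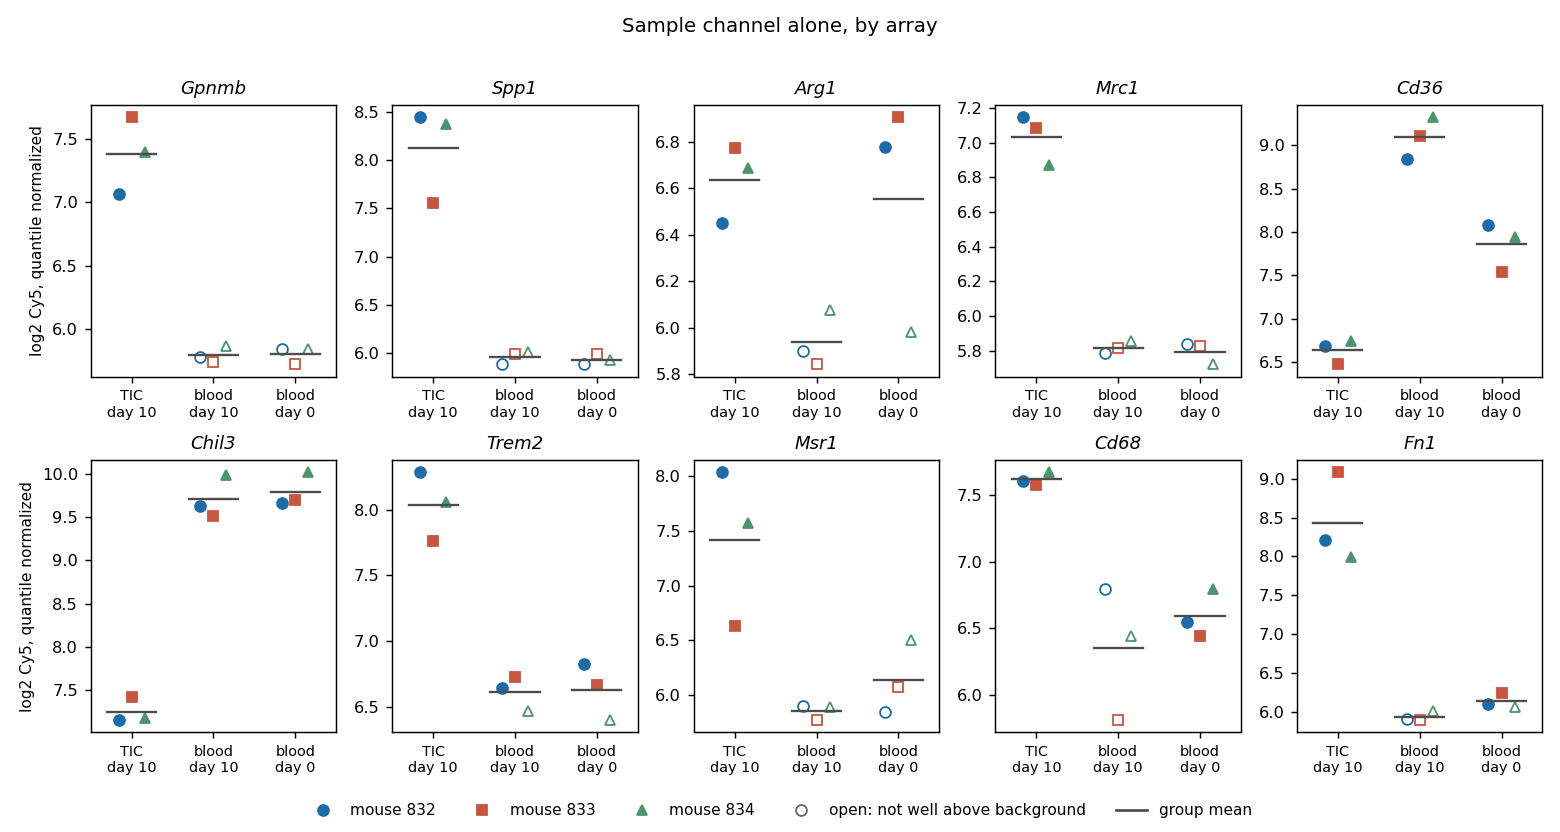
The same 9 arrays in the sample channel alone, as log2 Cy5 after quantile normalization (vertical axis), with symbols as for the log ratio. TIC and day 10 blood arrays do not overlap for any of the 10 genes, with 8 above and 2 below (40.1% and 24.9% over all genes), and for Arg1 the TIC arrays overlap day 0 blood.

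Promoter sequence was available for 7 of the 10 genes (RefSeq, build GRCm38.p6). The 250 bases before the annotated start were searched on both strands for 4 motifs: the AP-1 motif TGANTCA, the core GAGGAA bound by PU.1, a factor of the myeloid lineage, the E-box CACGTG and a STAT6-type motif of TTC and GAA with 4 bases between them. Shown are the 3 matched genes that were higher than both bloods in log ratio, Gpnmb, Mrc1 and Trem2, and Cd68, the general macrophage marker among the 10. They are printed 5′ to 3′ on the gene's strand, with matches to GAGGAA or TGANTCA in capitals on either strand.
Gpnmb (chr6:49036268-49036517, plus strand): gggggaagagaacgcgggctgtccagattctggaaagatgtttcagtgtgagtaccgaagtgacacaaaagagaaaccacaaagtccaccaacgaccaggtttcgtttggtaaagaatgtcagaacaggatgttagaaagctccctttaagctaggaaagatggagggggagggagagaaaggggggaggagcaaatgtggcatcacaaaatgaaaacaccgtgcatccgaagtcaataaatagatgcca
Mrc1 (chr2:14229164-14229413, plus strand): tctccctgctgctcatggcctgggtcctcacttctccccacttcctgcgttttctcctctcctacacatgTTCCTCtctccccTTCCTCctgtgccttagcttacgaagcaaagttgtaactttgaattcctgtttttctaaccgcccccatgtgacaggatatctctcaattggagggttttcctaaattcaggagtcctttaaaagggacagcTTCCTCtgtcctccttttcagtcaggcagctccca
Trem2 (chr17:48346151-48346400, plus strand): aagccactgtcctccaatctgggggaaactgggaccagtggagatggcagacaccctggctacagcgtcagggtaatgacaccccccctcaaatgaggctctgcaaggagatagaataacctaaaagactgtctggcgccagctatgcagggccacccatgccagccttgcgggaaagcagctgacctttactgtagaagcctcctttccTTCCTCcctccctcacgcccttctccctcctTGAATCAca
Cd68 (chr11:69666171-69666420, minus strand): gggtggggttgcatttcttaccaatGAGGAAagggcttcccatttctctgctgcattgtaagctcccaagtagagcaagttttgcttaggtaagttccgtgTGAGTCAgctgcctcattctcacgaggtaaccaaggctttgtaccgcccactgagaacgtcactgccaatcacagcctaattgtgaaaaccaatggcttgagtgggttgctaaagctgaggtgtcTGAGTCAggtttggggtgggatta

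The GAGGAA core was found 3 times in the Mrc1 promoter (the first base of the match at positions -180, -167 and -35 from the start), once in those of Trem2 and Cd68 and once in that of Spp1, not shown. The AP-1 motif was found once in Trem2, at -9, and at 2 places in Cd68. The Gpnmb promoter held neither. Of 32851 promoters of this length in the table, 23.3% held the GAGGAA core and 6.75% the AP-1 motif. The E-box, present in 6.02%, and the STAT6-type motif, in 5.85%, were in none of the 8 promoters of the 7 genes. The GAGGAA core thus occurs in a large share of all promoters, and a match describes the letters only.

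Mrc1 encodes the mannose receptor CD206, a lectin that takes up mannose-bearing glycoproteins, and Msr1 the class A scavenger receptor, which binds modified lipoproteins. The Mrc1 log ratio was 1.94, 1.35 and 1.45 on the TIC arrays of mice 832, 833 and 834, against -0.097, -0.058 and 0.0041 in day 10 blood and -0.0085, 0.090 and -0.22 in day 0 blood. Its Cy5 intensity was 748, 261 and 207 in the TIC fraction, with no blood array above 2.21. All 3 TIC arrays lay above all 6 blood arrays, and the bloods overlapped. The fitted difference from day 10 blood was 1.63 ± 0.16 by ratio (adjusted p = 3.89e-05) and 1.22 in Cy5 alone, and from day 0 blood 1.62 by ratio (adjusted p = 5.33e-05) and 1.24 in Cy5 alone. A joint scale of the channels was also used, with loess within arrays and the channels' average intensity quantile-normalized between arrays. On it Mrc1 was at least 2.59-fold higher than in day 10 blood and at least 2.67-fold higher than in day 0 blood. These and the following bounds take as the blood signal on each array the higher of the lowest signal above background and the probe's own signal. They hold on that scale only, are open to dye bias, and mostly exceed the fold given by the log ratio, by Cy5 alone or by both.

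The Msr1 log ratio was 1.19, 0.092 and 1.11 on the TIC arrays, 0.040, -0.15 and -0.021 in day 10 blood and -0.058, 0.098 and 0.26 in day 0 blood. By ratio the TIC array of mouse 833 lay within the range of day 0 blood and above that of day 10 blood. In Cy5 intensity it lay above both, since the TIC arrays had 2759, 128 and 698 and the blood arrays -1.24 to 8.53. Msr1 differed by 0.84 ± 0.27 from day 10 blood (adjusted p = 0.021) and by 0.69 ± 0.27 from day 0 blood (adjusted p = 0.0457), and by 1.56 and 1.27 in Cy5 alone. The bounds on the joint scale of the channels, at least 3.07-fold and at least 3.04-fold, exceed all of these. The call against day 10 blood was lost when the TIC array of mouse 832 or 834 or the day 10 array of mouse 833 or 834 was left out (adjusted p = 0.0514 to 0.0753) and with slide as a block (adjusted p = 0.201), whereas without the TIC array of mouse 833 it had adjusted p = 1.5e-05. Against day 0 blood it was lost without any 1 array other than the TIC array of mouse 833 (adjusted p = 0.0655 to 0.148), and within slide 2 the difference was 0.58 (adjusted p = 0.317). The other 2 Msr1 probes were called higher against both bloods, by 1.20 ± 0.30 and 0.98 ± 0.13 against day 10 blood, none of whose arrays was above background for them.

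Cd36 encodes a scavenger receptor and fatty acid transporter of macrophages, platelets and other cells. Its log ratio was -6.39, -5.68 and -5.87 on the TIC arrays, -1.71, -1.55 and -1.23 in day 10 blood and -2.94, -3.25 and -2.58 in day 0 blood. The 3 groups did not overlap: the TIC fraction was lowest, day 0 blood next and day 10 blood highest. Cd36 was lower in the TIC fraction, with a difference of -4.49 ± 0.23 (log2, SE) from day 10 blood (adjusted p = 1.76e-06) and of -3.06 ± 0.23 from day 0 blood (adjusted p = 1.32e-05). Within slide 2 the difference from day 0 blood was -2.68 (adjusted p = 0.0107). In Cy5 alone the differences were -2.45 ± 0.19 and -1.22 ± 0.19. A second Cd36 probe, above background on all 9 arrays, gave smaller differences of -2.38 ± 0.23 and -1.34 ± 0.23 by ratio (adjusted p = 6.97e-05 and 0.00224). Its log2 Cy5 was 7.48, 6.57 and 7.27 on the TIC arrays, below the 7.95 to 8.29 of day 10 blood but overlapping the 7.15 to 7.45 of day 0 blood, and its plain Cy5 intensity was higher on all TIC arrays (113 to 1283) than on any blood array (19.4 to 59.6).

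Plain Cy5 intensity of Cd36 was not lower in the TIC fraction: it was 305, 93.5 and 160 there, 69.9, 116 and 76.8 in day 10 blood and 142, 63.4 and 44.5 in day 0 blood, and these ranges overlap. Under median centring of the ratios Cd36 was at 0.28 against day 10 blood, 1.11 below the median of all genes. Platelet markers moved the same way. All 8 measured platelet genes fell against day 10 blood, with a summed quantile-normalized Cy5 of 542 to 680 on the TIC arrays, 15010 to 27010 in day 10 blood, with 11704 to 17444 in day 0 blood, and Itga2b, Gp1ba and Gp5 were well above background on no TIC array. The 9 erythroid markers fell too, with sums of 1162 to 1333, 59086 to 75039 and 60991 to 75947 in the same order. Their part in the Cd36 result was not tested.

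Trem2 is a surface receptor for lipids that signals through the adaptor Tyrobp, and Gpnmb is a transmembrane glycoprotein of lysosome-rich, lipid-laden macrophages. The Trem2 log ratio was 2.27, 1.09 and 1.91 on the TIC arrays, -0.053, -0.036 and -0.025 in day 10 blood and -0.051, -0.20 and -0.19 in day 0 blood. Its Cy5 intensity was 3815, 589 and 1374 in the TIC fraction, 4.60 to 8.67 in day 10 blood, with 7.36 to 32.6 in day 0 blood. All TIC arrays lay above all blood arrays on both measures, with mouse 833 lowest of the 3. Trem2 rose by 1.80 ± 0.26 against day 10 blood (adjusted p = 0.000319) and by 1.90 ± 0.26 against day 0 blood (adjusted p = 0.000262), with 2 of 3 arrays of each blood above background. Within slide 2 the difference from day 0 blood was 1.63 (adjusted p = 0.0381). A second Trem2 probe was at 0.60 ± 0.28 against day 10 blood and 0.69 ± 0.28 against day 0 blood by limma. Neither passed the test (adjusted p = 0.135 and 0.0954), and on the TIC array of mouse 833 this probe read -0.19.

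The Gpnmb log ratio was 1.55, 1.66 and 1.84 on the TIC arrays, -0.18, -0.22 and -0.073 in day 10 blood and -0.14, -0.27 and -0.065 in day 0 blood. Its Cy5 intensity was 650, 541 and 539 in the TIC fraction and between -2.61 and 2.20 on the 6 blood arrays. The 3 TIC arrays were close together, that of mouse 833 included. Gpnmb differed by 1.84 ± 0.11 from day 10 blood (adjusted p = 3.11e-06) and from day 0 blood (adjusted p = 4.72e-06) by ratio, and by 1.59 and 1.58 in Cy5 alone, with bounds of at least 3.35-fold and at least 3.46-fold. Within slide 2 the difference of 1.96 from day 0 blood was called (adjusted p = 0.0126). Its second probe was well above background on no array of any group. The Gpnmb probe used lies at chr6:48985973-48986032 (build mm8, plus strand) and the other at chr6:48986699-48986758. Which transcripts they cover was not analysed here.

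Cd68 encodes a lysosomal glycoprotein that most macrophages carry. Its log ratio was -0.11, -0.16 and 0.14 on the TIC arrays, -0.0022, -0.35 and -0.022 in day 10 blood and -0.33, -0.38 and 0.012 in day 0 blood. The groups overlapped, and the differences did not pass the test (0.19 ± 0.15 against day 0 blood, adjusted p = 0.298; adjusted p = 0.648 against day 10 blood). In the sample channel they were apart, with Cy5 intensities of 1567, 488 and 807 in the TIC fraction, 7.58, -0.042 and 4.49 in day 10 blood and 21.0, 14.4 and 12.6 in day 0 blood. In Cy5 alone Cd68 was higher than day 10 blood (adjusted p = 0.000971) and than day 0 blood, by 1.03 ± 0.23 (adjusted p = 0.00458).

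The reference channel also differed for Cd68. The same reference RNA gave a Cy3 intensity of 178 to 201 on the TIC arrays and 64.3 to 83.8 on the 6 blood arrays at this probe. Fn1 (79.5 to 196 against 24.1 to 29.6) and Msr1 (40.6 to 122 against 12.02 to 19.5) showed the same pattern. The other 7 genes did not, and neither did the further probes of Fn1 and Msr1. Of all genes kept, 3.38% had a Cy3 range on the TIC arrays above that on the blood arrays by more than 1.5-fold, and the median ratio of Cy3 between them was 1.08. A higher Cy3 on the TIC arrays lowers the log ratio there. The cause was not tested.

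**Figure D3:**
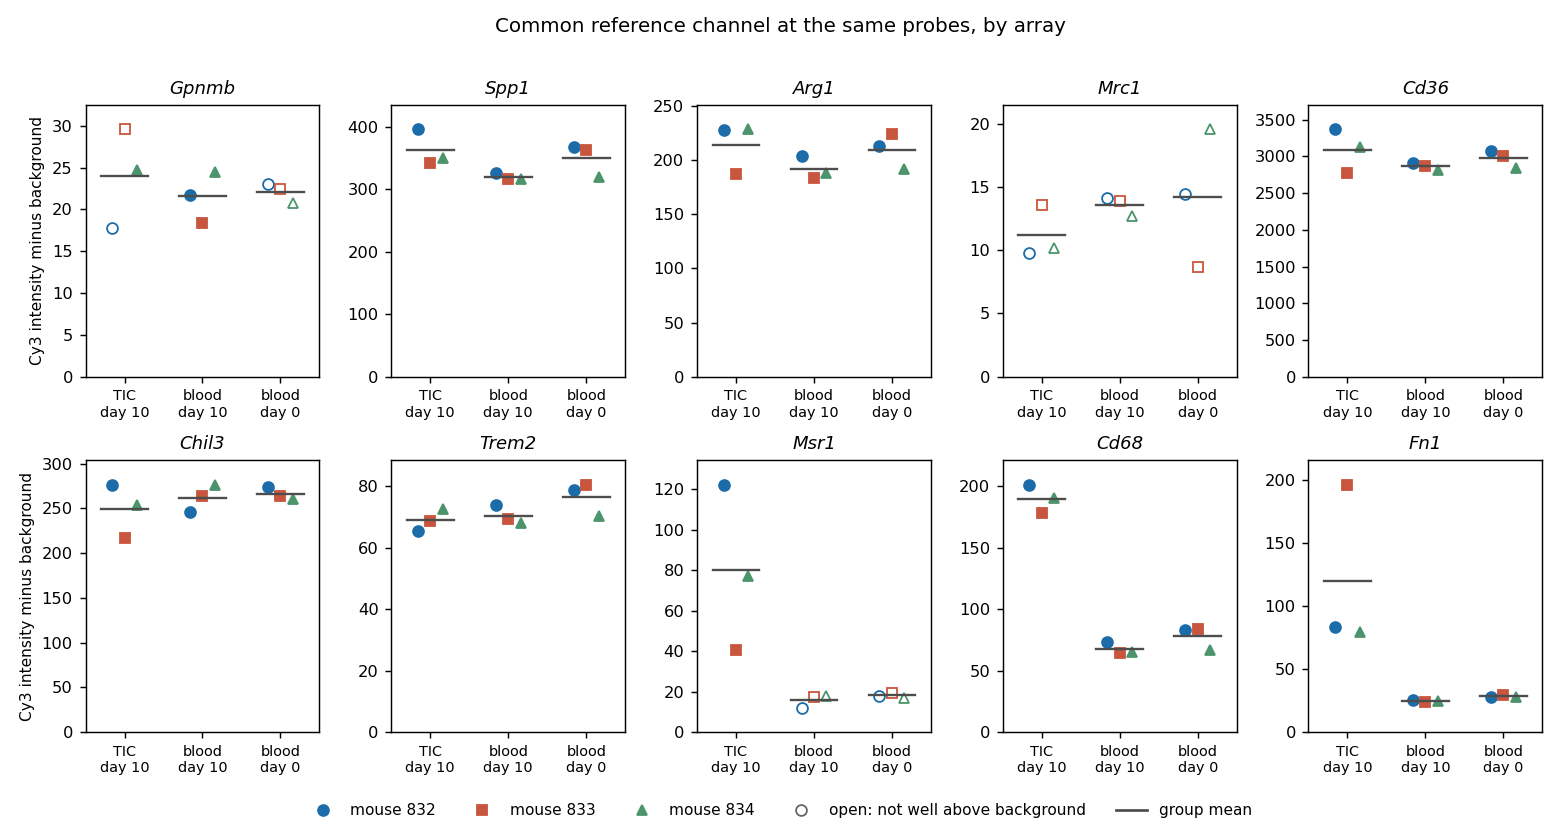
Cy3 intensity minus local background (vertical axis, from 0) of the common reference at the probe used for each gene, by array, with open symbols where the probe was not well above background in Cy3. Cd68, Fn1 and Msr1 are brighter on all 3 TIC arrays than on any blood array, although the reference RNA was the same.

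Spp1 encodes osteopontin, a secreted ligand of integrins and CD44, and Fn1 encodes fibronectin, a matrix protein bound by integrins. The Spp1 log ratio was 0.11, -1.001 and 0.34 on the TIC arrays, -1.05, -1.16 and -0.81 in day 10 blood and -2.21, -1.98 and -1.37 in day 0 blood. The TIC array of mouse 833 lay within the range of day 10 blood, and the 2 bloods did not overlap, although Spp1 was above background on none of their arrays. The Cy5 intensity was 4627, 474 and 1982 in the TIC fraction and between 0.44 and 5.07 on all blood arrays. Spp1 was not called against day 10 blood by ratio (0.82 ± 0.35, adjusted p = 0.0632). With the mouse as a block it was (adjusted p = 0.0295), as it was without the TIC array of mouse 833 (adjusted p = 0.000926) and in Cy5 alone (adjusted p = 2.91e-05). Against day 0 blood the difference was 1.67 by ratio (adjusted p = 0.00307) and 2.19 in Cy5 alone, and within slide 2 the difference of 1.77 by ratio did not pass (adjusted p = 0.0743). The reference gave an Spp1 Cy3 intensity of 316 to 396 on the 9 arrays, so this blood RNA, from another strain, had signal in Cy3 at a probe where the mice's own blood had none in Cy5. Dye and strain cannot be told apart here.

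The Fn1 log ratio was 1.91, 1.41 and 1.70 on the TIC arrays, -0.083, -0.090 and -0.049 in day 10 blood and -0.0096, 0.079 and -0.022 in day 0 blood. Its Cy5 intensity was 3502, 1726 and 1271 in the TIC fraction, 1.04 to 1.34 in day 10 blood, with 3.62 to 10.46 in day 0 blood. The TIC arrays lay above all blood arrays on both measures. Fn1 rose by 1.75 ± 0.13 by ratio against day 10 blood (adjusted p = 7.75e-06), where no array was above background, or by 2.49 in Cy5 alone, and by 1.66 ± 0.13 by ratio against day 0 blood (adjusted p = 1.51e-05), where 2 of 3 arrays were above background, with 1.52 within slide 2 (adjusted p = 0.0174). The other 2 probes were called higher against both bloods as well, but by 0.52 ± 0.11 and 0.42 ± 0.13 against day 10 blood. The brightest Fn1 probe, at chr1:71524056-71526293 (mm8, minus strand), spans 2238 bases of genome.

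Markers of cells that also make fibronectin were present in the TIC fraction. Of 10 fibroblast markers 6 were well above background on all 3 TIC arrays, with a summed Cy5 of 6811 to 9164, against 694 to 902 in day 10 blood, with 685 to 724 in day 0 blood. Most of that sum was Dcn, decorin, whose difference from day 10 blood was 6.82 in Cy5 alone. Among the others tested, Col1a1 was at 0.062, Col1a2 at 0.23, Thy1 at 0.26, Pdgfrb at 0.33 and Col3a1 at 0.55 in Cy5 alone. By ratio both Col1a chains, Col3a1 and Thy1 were lower. There 2 of the 6 were called higher and 4 lower, beside 34.4% and 33.2% of all genes. Dcn and Pdgfrb, which rose, needed the TIC arrays to pass the filter. Col1a1, Col3a1, Lum, Pdgfra, Pdgfrb, Fap and Postn were above background on no blood array. Of 14 hepatocyte and hepatoma markers 11 were above background on all TIC arrays, with sums of 6223, 27416 and 6432 in mice 832, 833 and 834, against 1214 to 1574 in day 10 blood, with 1051 to 1228 in day 0 blood. Alb, Ttr, Apoa1, Apoa2, Apob, Fgg, Igf2 and Gpc3 were above background on no blood array. Except Ttr, which was not kept, these passed the filter through the TIC arrays alone, as did Hnf4a at the probe used. Counts of markers that rose lean to them. Of 13 tested against day 10 blood, 10 rose and 2 fell by ratio, beside 34.4% and 33.2% of all genes. In Cy5 alone 8 rose and 2 fell, beside 34.7% and 23.2%. The largest differences in Cy5 alone were those of Alb (5.88) and Afp (5.56). Ahsg was at -3.51 by ratio and -2.48 in Cy5 alone, and H19 at -1.38 and -0.73. The TIC array of mouse 833, with the highest hepatocyte sum, had the highest Fn1 of the 3 in Cy5 alone but the lowest by ratio and a plain Cy5 between the other two, and the lowest Trem2, Msr1 and Spp1. Their part in these results was not tested.

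**Figure D4:**
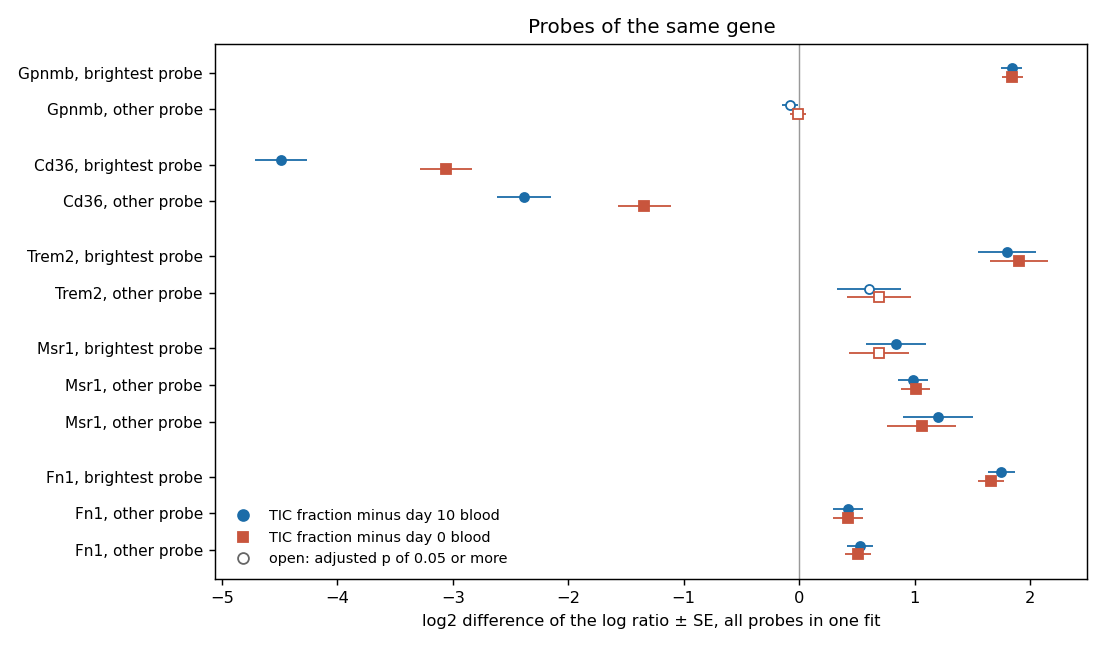
Log2 difference of the log ratio ± SE (horizontal axis) for each probe of the 5 genes with several probes, from a fit over all probes without the filter, for the TIC fraction minus day 10 blood and minus day 0 blood, with open symbols where the adjusted p was 0.05 or more. The probes of Fn1 and Cd36 differ in size but not in direction, while the second Gpnmb probe lies near 0.

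Arg1 encodes arginase 1, which splits arginine into ornithine and urea. Its log ratio was -2.35, -1.45 and -1.81 on the TIC arrays, -0.68, -0.81 and -0.44 in day 10 blood and -1.01, -0.91 and -0.91 in day 0 blood. By ratio the TIC arrays lay below all blood arrays, and day 10 blood lay above day 0 blood, with the mean difference between the bloods turned to -0.62 in Cy5 alone. The Cy5 intensity ran the other way, with 173, 163 and 140 in the TIC fraction, 1.70, 0.73 and 2.88 in day 10 blood and 30.6, 29.3 and 3.52 in day 0 blood. By limma on the ratio, Arg1 was lower than in day 10 blood (adjusted p = 0.000998) and in day 0 blood, from which it differed by -0.93 ± 0.21 (adjusted p = 0.0048). Within slide 2 the difference from day 0 blood was -0.67 (adjusted p = 0.0882). In Cy5 alone it was higher than in day 10 blood (adjusted p = 0.0263), and against day 0 blood it was at 0.08 ± 0.23 (adjusted p = 0.787). No day 10 blood array was above background for Arg1. On the joint scale of the channels its mean log2 signal was 6.13 in the TIC fraction. That is below the 7.21 of day 10 blood, so no bound is given. The direction is not settled by these arrays.

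Chil3 encodes Ym1, a secreted chitinase-like protein. Its log ratio was -1.34, -0.63 and -1.09 on the TIC arrays, 1.66, 1.52 and 1.83 in day 10 blood and 1.88, 1.82 and 1.997 in day 0 blood. The TIC arrays lay below all blood arrays, and the bloods overlapped. Chil3 was lower in the TIC fraction, with a difference of -2.68 ± 0.18 from day 10 blood (adjusted p = 4.6e-06) and of -2.91 ± 0.18 from day 0 blood (adjusted p = 4.99e-06), or -2.70 within slide 2 (adjusted p = 0.0116). In Cy5 alone the differences were -2.45 ± 0.17 and -2.54 ± 0.17. Plain Cy5 intensity was 768, 405 and 372 in the TIC fraction, 144, 170 and 142 in day 10 blood and 576, 412 and 264 in day 0 blood, so in this unscaled measure the TIC arrays lay above day 10 blood. Under median centring Chil3 was at 1.17 against day 10 blood, 0.22 below the median of all genes. Of 11 neutrophil markers tested, 7 fell by ratio against day 10 blood and none rose, beside 33.2% and 34.4% of all genes. In Cy5 alone 9 fell and none rose, beside 23.2% and 34.7%. Under median centring none fell and 2 rose, beside 3.25% and 72.1%, with a median of 0.25 against 1.38 over all genes. The fall of these markers thus depended on the scaling. Their summed Cy5 was 5644 to 13468 on the TIC arrays, 38326 to 50944 in day 10 blood, with 56616 to 89122 in day 0 blood. Their part in the Chil3 result was not tested. Chil3 has a close paralogue, Chil4, and signal shared between their probes was not tested.

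**Figure D5:**
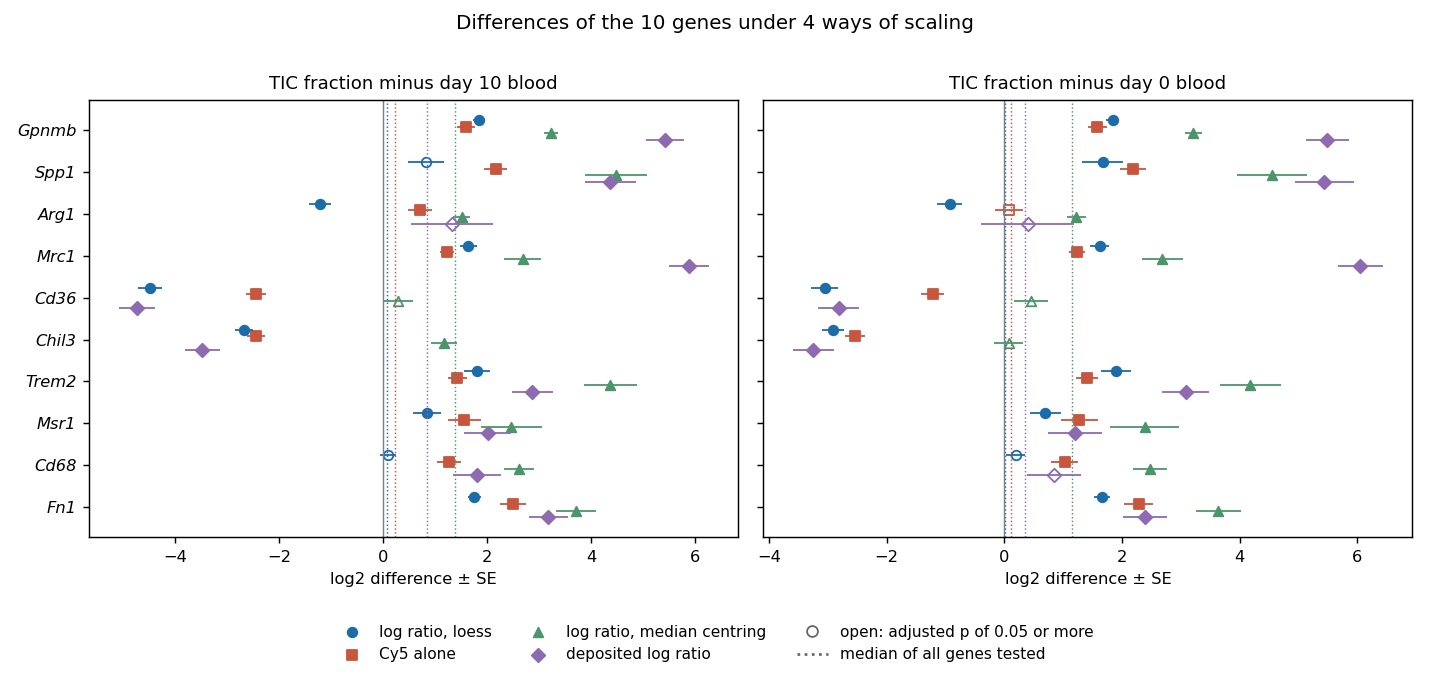
Log2 difference ± SE (horizontal axis) of the 10 genes for the TIC fraction minus day 10 blood (left) and minus day 0 blood (right) under 4 scalings, with open symbols where the adjusted p was 0.05 or more and dotted lines at the median of all genes tested. Arg1 changes sign between the loess ratio and the other 3 scalings, and Cd36 and Chil3 are above 0 under median centring but left of its dotted line.

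The median difference of all genes against day 10 blood was 0.07 by loess ratio, 0.22 in Cy5 alone, 0.85 with the deposited log ratio and 1.38 with median centring. Relative to these medians, Gpnmb was 1.77, 1.38, 4.57 and 1.84 higher, and Cd68 was 0.02, 1.05, 0.95 and 1.23 higher, in the same order. Gpnmb, Fn1, Mrc1, Trem2, Msr1, Spp1 and Cd68 lay above the median of all genes under all 4 scalings, and Cd36 and Chil3 lay below it, against either blood. Gpnmb, Fn1, Mrc1, Msr1 and Spp1 passed the filter only with the TIC arrays. Their place above the median was thus favoured by the filter, and the 4 scalings use the same arrays. Arg1 was at -1.29, 0.48, 0.48 and 0.12 relative to the median against day 10 blood.

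Between day 10 and day 0 blood, most of the 10 genes gave values near background in both. Cd36, above background on all arrays, differed by 1.43 ± 0.23 in log ratio between day 10 and day 0, which did not pass the test (adjusted p = 0.0658), with 1.24, 1.70 and 1.35 in the 3 mice. In Cy5 alone it was 1.23 ± 0.19 higher (adjusted p = 0.0179), and within slide 3 the value was 1.08. Slide 3 holds a single day 0 array, so a call there (adjusted p = 0.0318) assumes that this array varies like the 3 day 10 arrays. With slide as a block it had adjusted p = 0.581. Under median centring the difference was 0.17. Of the 9 erythroid markers, 4 rose in Cy5 alone in this comparison, and of 8 platelet markers 1 did, beside 1.64% of all genes. None of these markers was called by ratio or under median centring. Chil3 differed by -0.23 ± 0.18 (adjusted p = 0.657), Trem2 by 0.11 ± 0.26 and Cd68 by 0.11 ± 0.15, with no Cd68 array above background in day 10 blood. Spp1 and Arg1 had non-overlapping ratios but no call (adjusted p = 0.311 and 0.615). For the log ratio, 15.7% of all genes had day 10 arrays all above the day 0 arrays and 17.2% all below, and 3 and 1 of the 10 did.

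Lists of other genes of the same processes were counted in the same fit, beside 34.4% of all genes higher and 33.2% lower by ratio, and 34.7% and 23.2% in Cy5 alone. Under median centring 72.1% of all genes were higher and 3.25% lower, with a median of 1.38. Values under median centring are to be read against that median, below which Il4ra, Cd9, Syk and Itga4 lay. Many of their genes reached the filter only with the TIC arrays, having fewer than 3 blood arrays above background, and counts of genes that rose lean to these. Of 17 kept genes of alternative activation, 8 rose and 5 fell against day 10 blood (median difference 0.40, against 0.07 over all genes), and 6 of the 8 had no blood array above background. Ccl24, an eosinophil attractant, rose by 3.11 ± 0.23 by ratio (adjusted p = 7.31e-06) and was at 4.12 in Cy5 alone. Clec10a, a lectin of myeloid cells, rose by 2.13 ± 0.31 (adjusted p = 0.00035) and was at 2.15 in Cy5 alone. Both were above background on no day 10 blood array. F13a1, the factor XIII A chain of platelets and monocytes, fell by 5.10 (SE 0.25), and Il4ra, the receptor chain for IL-4 and IL-13, by 1.79 (SE 0.17), although under median centring Il4ra was at 1.33. In Cy5 alone 10 rose and 2 fell.

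Of 15 genes of lipid handling and the Trem2 programme, 8 rose and 2 fell (median 0.47), as many as in Cy5 alone, and 4 of the 8 needed the TIC arrays to pass the filter. Apoe, a lipid carrier secreted by macrophages and hepatocytes, rose by 2.11 ± 0.24 (adjusted p = 8.41e-05), and Lpl, lipoprotein lipase, by 2.27 ± 0.25 (adjusted p = 6.14e-05), or at least 4.67-fold on the joint scale of the channels. Cd9, a tetraspanin that platelets also carry, fell by 5.005 (SE 0.38), and Syk, the kinase downstream of Tyrobp, by 1.80 (SE 0.16), with Cd9 at 1.14 and Syk at 0.37 under median centring. Of 9 kept scavenger receptor genes 6 rose and none fell, by ratio and in Cy5 alone, but 7 of the 9 needed the TIC arrays to pass the filter, 4 of the 6 that rose had no blood array above background, and without the filter 7 rose and 1 fell by ratio. Among them Lrp1, an endocytic receptor, rose by 1.19 ± 0.14 with 1 of 3 day 10 arrays above background, and Cxcl16, a transmembrane chemokine that binds oxidized lipoprotein, rose by 1.39 ± 0.36 (adjusted p = 0.00898). Cd5l rose by 0.62 ± 0.13 and Colec12 by 0.44 ± 0.092, neither above background on a blood array.

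Of 8 kept genes of classical activation, 4 rose and 1 fell (median 0.56), and in Cy5 alone 2 rose and 1 fell. All 4 that rose needed the TIC arrays to pass the filter. Cxcl10, an interferon-induced chemokine, rose by 2.01 ± 0.21 (adjusted p = 4.44e-05), Cxcl9 by 0.63 ± 0.15 and Cd80, a costimulatory ligand, by 0.47 ± 0.15, while Irf5 was lower by ratio (-0.81 ± 0.20) and at 0.45 in Cy5 alone. Nos2, Il6, Il12b and Il23a did not pass the filter. Of 19 genes of monocyte and macrophage identity, 9 rose and 2 fell (median 0.40), and 7 of the 9 needed the TIC arrays to pass the filter. In Cy5 alone 6 rose and 1 fell, beside 34.7% and 23.2% of all genes. Csf1r, Adgre1, Cd14, Itgam and Lyz2 were called neither by ratio nor in Cy5 alone against day 10 blood. Against day 0 blood only Itgam of these was called by limma. It was lower by ratio (-0.89, adjusted p = 0.00168) and in Cy5 alone (-0.73, adjusted p = 0.0185). C1qc, a chain of complement C1q, rose by 1.95 ± 0.20 by ratio and was at 4.74 in Cy5 alone, and Aif1, which encodes IBA1, rose by 1.98 ± 0.12 and was at 4.03. Neither was above background on a day 10 blood array. Fcgr1, the high-affinity IgG receptor, rose by 0.89 ± 0.13. Maf, a transcription factor, fell by 2.58 (SE 0.26) by ratio and was at -2.26 in Cy5 alone and 2.73 under median centring. All 19 were above background on the 3 TIC arrays, 4 on all day 10 and 9 on all day 0 blood arrays. Their summed Cy5 was 8695, 4127 and 6324 on the TIC arrays of mice 832, 833 and 834, lowest in mouse 833 as were Trem2, Msr1 and Spp1, and 3819 to 4220 in day 10 blood. Of 4 pan-leukocyte markers, 3 fell and none rose by ratio, 2 fell in Cy5 alone, and 3 rose under median centring. Ptprc was at -3.37 and Laptm5 at -3.39 by ratio.

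Of 8 receptor genes for osteopontin and fibronectin, 2 rose and 5 fell (median -1.47), and both that rose had no blood array above background. Itgb3, an integrin chain abundant on platelets, fell by 7.36 (SE 0.39), Itga4 by 3.01 (SE 0.34) and Itgb5 by 2.27 (SE 0.37), and Itgav rose by 0.915 (SE 0.14, adjusted p = 0.000448). In Cy5 alone 2 of the 8 rose and 4 fell. Under median centring Itgb5 was at 2.24 and Itga4 at 0.32, against a median of 1.38 over all genes. There 6 of the 8 rose, near the 72.1% of all genes. Of 9 genes of arginine and polyamine metabolism, 5 rose and 3 fell (median 0.62), and 2 of the 5 needed the TIC arrays to pass the filter. In Cy5 alone 4 rose and 2 fell. Odc1, ornithine decarboxylase, fell by 6.43 (SE 0.59), while Srm, spermidine synthase, rose by 1.41 ± 0.13, with no day 10 array above background, and Sms, spermine synthase, rose by 0.88 ± 0.19 with 1 of 3 day 10 arrays above background. Oat, ornithine aminotransferase, was at -0.78 ± 0.16 by ratio and 0.94 in Cy5 alone. No gene of these 7 lists was called by limma between day 10 and day 0 blood, by ratio or in Cy5 alone. The closest was Lgals3, galectin 3, at -1.32 ± 0.35 (adjusted p = 0.157).

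Genes whose log ratio was most like that of 9 of the 10 over the 9 arrays were ranked by Pearson correlation among 11971 genes. The arrays fall into TIC and blood groups, so any gene that differs between them can reach a high value. Cd36 was closest to Tmod1 (r = 0.9993) and Trim10, both known from red cells, Trem2 to the chemokine gene Ccl8 (r = 0.9975) and Dnajc22, Fn1 to Grb14 (r = 0.999) and Mrpl13, and Gpnmb to Gtse1 (r = 0.9974) and Il17rc. Chil3 was closest to Fes and Cyfip2, Arg1 to Slc66a2 and Skiv2l, Msr1 to Naaa and P2ry14, and Spp1 to Kctd17 (r = 0.9719) and Clybl. For Cd68 no gene came closer than Cib2 (r = 0.8643). Among the 10, Mrc1 and Fn1 were most alike (r = 0.9924), and Chil3 and Fn1 most opposed (r = -0.9906).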

How the data were processed

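RNA of 9 samples was hybridised on 9 two-colour Agilent arrays of 45018 spots, and spot mean and local background intensities in Cy5 and Cy3 are as deposited in the scanner files, with no normalization between arrays. The scanner software was Agilent Feature Extraction, version 10.5.1.1 per the file headers and 9.1.3.1 per the submitters' processing notes. The deposited log10 ratio (Cy5 over Cy3, background-subtracted and dye-normalized by the scanner software, per the file headers) was the same in the value table and the scanner files. It was turned to log2 and used as an alternative. Groups were taken from the labels, which name the mouse of each sample.

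The intensities were background-corrected (normexp, offset 50) after spots with non-uniform background were set aside. They were then loess-normalized within arrays with control spots and outliers at weight 0, and averaged by probe (R 4.3.3, limma 3.58.1, Python 3.11.15). A probe was kept if its Cy5 signal was well above background on 3 or more of the 9 arrays (19995 of 41174 probes). The brightest probe stood for each gene, named by accession (23483 probes), current symbol (6678), synonym (2887) or the file's own name (8126). Groups were compared with limma over all 9 arrays (6 residual degrees of freedom), with Benjamini-Hochberg adjustment over 14246 genes and a threshold of 0.05. Adjusted p-values in the text are from these fits or, for single probes, from a fit over all probes. Cy5 alone is the quantile-normalized log2 Cy5 intensity. The fold bounds use Cy5 rebuilt from the loess ratio and the average intensity of the channels, quantile-normalized between arrays. With 3 arrays a group their number limits the precision. The fit was tested on simulated data.

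Samples of one number came from one mouse. The deviations of the bloods of one mouse from their group means correlated at 0.19, 0.35 and 0.24, those of the TIC fraction and its bloods at -0.06 to 0.06. Alternatives were median centring, the deposited ratio, Cy5 alone, other filters, other probe rules, mouse and slide blocks, fits of the compared groups, and each array left out. The 10 genes were named in full. Of the lists (alternative activation, lipid and Trem2 programme, classical activation, monocyte and macrophage identity, osteopontin and fibronectin receptors, arginine and polyamine metabolism, scavenger receptors, and markers of other cells), up to 4 genes with the smallest p against day 10 blood could be named per list. Some further genes were named to show those not called, not kept, absent from blood or going the other way. The genes and lists were chosen with earlier results of these data known. The genes most like Mrc1 are not reported here.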

Additional observations from a re-analysis of the deposited data

Results flagged for a closer look

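The reference RNA was the same on every array, and its Cy3 signal was not used in a comparison of its own. At 3 of the 10 genes it was brighter on every TIC array than on any blood array. The median Cy3 intensity on the TIC arrays over that on the blood arrays was 2.72 for Cd68, 3.12 for Fn1 and 4.40 for Msr1. It was 1.08 at the median of all genes kept, and 482 genes showed a gap of more than 1.5-fold. The cause was not tested.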

How the results depend on the processing

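Against day 10 blood the count of genes called was 2956 among genes above background on all 9 arrays, 4275 when slide was blocked and 1113 when slide and mouse were both blocked, and 2 of the 10 were called in the first (where 2 were tested) and the last. Leaving out 1 array gave 8330 to 10940 genes and 7 to 9 of the 10. Against day 0 blood the counts were 2908 (2 of the 10) on genes above background on all 9 arrays, 4431 with both blocks and 3489 within slide 2. The replicate block (mouse) alone added Spp1 against day 10 blood (0.82, adjusted p = 0.0295), called 19 genes between the bloods, and changed no other call of the 10. Median centring turned Arg1 to 1.504 and 1.22, Cd36 to 0.28 and 0.45 and Chil3 to 1.17 and 0.075 against day 10 and day 0 blood. Arg1 was also turned by the deposited ratio (1.32 and 0.40) and in Cy5 alone (0.70 and 0.083). Cd68 against day 10 blood ranged between -0.03 and 0.14 with 1 array left out. Of the values of the 10 genes under the alternatives, 136 against day 10 blood and 152 against day 0 blood kept direction and call, 11 and 13 lost the call, 8 and 2 gained it and 7 and 5 turned sign. Between the bloods, 756 genes were called with the deposited ratio, 548 in Cy5 alone, 146 among genes above background on all arrays, 746 in a fit of the bloods alone, 577 within slide 3 (its single day 0 array assumed to vary like the day 10 arrays) and 0 to 18 with 1 array left out (18 without day 0 mouse 834). Cd36 was the 1 gene of the 10 called in each of these but the last. Uncalled differences between the bloods turned sign as follows. Under median centring they were Gpnmb -0.0115, Arg1 -0.28, Mrc1 0.0101, Trem2 -0.19 and Cd68 -0.13, with the deposited ratio Arg1 -0.92, Mrc1 0.18, Chil3 0.23 and Cd68 -0.95, and in Cy5 alone Gpnmb -0.0063, Arg1 -0.62, Mrc1 0.0229, Trem2 -0.0187 and Cd68 -0.24. With slide as a block, as within slide 3, Gpnmb was -0.0919, Mrc1 0.17 and Cd68 -0.14, with both blocks Gpnmb -0.005, Mrc1 0.23, Cd68 -0.0231 and Fn1 0.0455, and with non-uniform spots kept Gpnmb -0.0125. With 1 array left out Gpnmb ranged between -0.0535 and 0.0502 and Mrc1 between -0.0912 and 0.0619. Except where the gene set or sample number itself changed, the cause was not tested. Signal near background on the blood arrays limits fold sizes for all genes but Cd36 and Chil3.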
